A study of Mus musculus with 36 samples.

Results

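The progenies of 2 hair follicle (HF) stem cell (SC) populations, Lrig1 genetically labelled (GL) and Lgr5 GL cells, were compared in tail skin 4 weeks after a first wound (4w pw1). The comparison used 6 of the 36 libraries of the study, 3 per population, and every gene named in both count tables. Lrig1 GL and Lgr5 GL mice carried an EGFP-ires-CreERT2 cassette knocked into the Lrig1 or the Lgr5 locus together with Rosa26-fl/STOP/fl-tdTomato, so that Cre activity under either promoter switched on tdTomato for good. The mice sampled at 4w had received 1 topical application of hydroxytamoxifen on the tail as young adults, followed by a full-thickness tail wound. At 4w the wound had been made once, and a second wound followed only at 8w. Epidermal tdTomato+ cells were sorted from the wound bed together with nearby distal HFs, so each library pools cells of both sites. The study reports mice of both sexes and gives no sex for these libraries. The Y-linked genes Uty and Kdm5d were listed for Lgr5 GL cells alone, with counts in 15 and 16 of 18 libraries. They had at most 3 counts in a library at 4w, and whether sex differed between the populations was not tested. The study counts the replicates of these populations as mice, while the labels tie no library to a mouse. The p-values rest on the spread between the 3 libraries of a group, estimated jointly over all 12 groups and 36 libraries.

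Lrig1+ SCs sit in the junctional zone of the upper HF and give rise to the infundibulum and the sebaceous gland, whereas Lgr5+ SCs sit in the bulge and hair germ of the lower HF and feed the hair shaft and its sheaths during growth. After a wound both progenies can leave the HF and enter the interfollicular epidermis (IFE). The cells that carry tdTomato at 4w are descendants of the labelled cells, whatever they express by then, so the label names an origin and not a state.

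The 6 libraries held between 1264142 and 2116933 counts. Gm12415, a long non-coding RNA gene, took 52.1, 28.5 and 30.6% of all counts in Lgr5 GL replicates a, b and c against at most 4 counts in any Lrig1 GL library, and it was left out before scaling. Without it and the genes filtered out, Lgr5 GL replicate a kept 639666 counts, the fewest of the 6, against 1494680 and 887036 in replicates b and c and 1256902 to 1952373 in the Lrig1 GL libraries. Mitochondrially encoded genes took 8.69, 3.82 and 4.92% of the counts without Gm12415 in Lrig1 GL and 2.51, 3.04 and 1.81% in Lgr5 GL libraries. Each population was deposited as its own table, so population and batch cannot be told apart in any value below. Levels are given as CPM, the count of a gene per 1e6 counts of the genes tested, after TMM scaling. They set libraries and not genes side by side, since they are not per length. Libraries of the same population correlated at Pearson's r of 0.736 to 0.859 over genes on the log2 CPM scale, and libraries of different populations at 0.692 to 0.785, where genes are not independent replicates. In such bulk libraries, fewer cells of a type and less RNA per cell cannot be told apart.

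**Figure D1:**
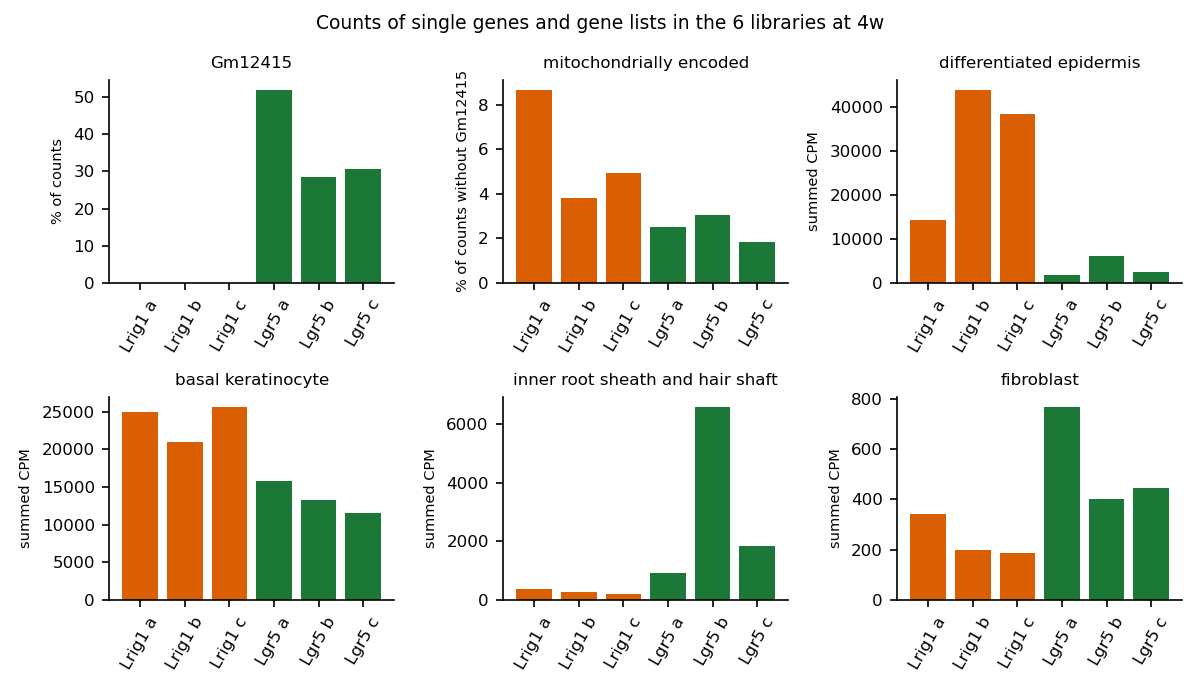
Bars give, for each of the 6 libraries at 4w (3 Lrig1 GL in orange, 3 Lgr5 GL in green), the percentage of counts on Gm12415 or on mitochondrially encoded genes, or the summed CPM of a gene list. Gm12415 took 28.5 to 52.1% of the counts of Lgr5 GL libraries alone, the differentiated epidermis list was higher in every Lrig1 GL library, and the fibroblast and hair shaft lists were higher in every Lgr5 GL library.

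Of 16652 genes tested at 4w, 295 were higher in Lrig1 GL and 289 were higher in Lgr5 GL cells, which is 1.77% and 1.74% of the genes tested. Calls needed an adjusted p under 0.05 (edgeR's quasi-likelihood test, Benjamini-Hochberg) and a fold change beyond 1 on the log2 scale. Log2 fold changes are Lrig1 GL over Lgr5 GL throughout. At an unadjusted p under 0.05 there were 3261 genes. The 3 libraries of each population did not overlap for 286 and 280 of these genes, and for 4103 genes, or 24.6%, of all tested. The differences were of unlike size, with a median log2 fold change of 1.66 among genes higher in Lrig1 GL and of -3.84 among those higher in Lgr5 GL cells, or -3.62 with genes at 0 in 1 population set at their bound. All 3 Lrig1 GL libraries were at 0 counts for 58 of the 289 genes, and all 3 Lgr5 GL libraries for 6 of the 295. Genes higher in Lrig1 GL cells had a median transcript length of 936 bases and a median GC content of 49.0%, against 1983 bases and 52.8% for those higher in Lgr5 GL cells and 1339 bases and 49.5% for all genes tested.

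The balance of the calls moved with the scaling, the test and the libraries used. Lrig1 GL cells held 50.5% of the 584 calls here, 37.7% (211 against 348) with DESeq2's size factors and 72.9% (654 against 243) once a trend with GC content was removed. The median log2 fold change over all genes moved from -0.11 to -0.24 and to 0.17. All 584 genes kept their direction under both. The likelihood ratio test gave 41.9% (507 against 702) with the scaling unchanged, and leaving out 1 library gave 39.8 to 61.2%. Leaving out Lrig1 GL replicate b gave 150 and 95 calls, and leaving out Lrig1 GL replicate c gave 158 and 140. Leaving out Lgr5 GL replicate b or c gave 171 and 187 or 84 and 127, again with every one of the 584 genes in its direction.

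Leading genes of both directions were picked only among called genes whose libraries did not overlap between the populations. Their lack of overlap at 4w, given below, was thus fixed by that choice. The 12 leading genes higher in Lrig1 GL cells held genes of the epithelial surface, of redox balance and of ion transport. Ly6d, a surface protein of stratified epithelia (chromosome 15, 74762056 to 74763620, minus strand on GRCm38), was at 8216, 12909 and 13375 CPM in Lrig1 GL and 603, 1382 and 643 CPM in Lgr5 GL cells. The lowest Lrig1 GL library lay far above the highest Lgr5 GL library (log2 fold change 3.71 ± 0.49 (SE), adjusted p = 4.72e-05). Serpinb5, the epithelial serpin maspin, was at 1151, 1652 and 1565 CPM in Lrig1 GL and 481, 431 and 313 CPM in Lgr5 GL cells (log2 fold change 1.83 ± 0.29 (SE), adjusted p = 0.000384), again with every Lrig1 GL library above every Lgr5 GL library.

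Fam213a, a peroxiredoxin-like redox protein, was at 396, 179.9 and 317 CPM in Lrig1 GL and 41.3, 44 and 23 CPM in Lgr5 GL cells (log2 fold change 3.04 ± 0.40 (SE), adjusted p = 4.72e-05). Gpx1, the glutathione peroxidase that removes hydrogen peroxide, was at 818, 912 and 977 CPM in Lrig1 GL and 319, 216 and 175 CPM in Lgr5 GL cells (log2 fold change 1.93 ± 0.27 (SE), adjusted p = 7.66e-05). Atp1b3, a beta subunit of the sodium pump, was at 4009, 2591 and 3437 CPM in Lrig1 GL and 1151, 1133 and 1052 CPM in Lgr5 GL cells (log2 fold change 1.59 ± 0.22 (SE), adjusted p = 6.30e-05). The populations did not overlap in these 3 genes, and the Lgr5 GL libraries lay closest together in Atp1b3. Fam25c was at 362, 1001 and 912 CPM in Lrig1 GL and 49.3, 128 and 68.9 CPM in Lgr5 GL cells (log2 fold change 3.19 ± 0.43 (SE), adjusted p = 6.30e-05). Them5, a mitochondrial acyl-CoA thioesterase (chromosome 3, 94342099 to 94347352, plus strand), was at 503, 620.2 and 701 CPM in Lrig1 GL and 49.3, 136 and 47.8 CPM in Lgr5 GL cells (log2 fold change 2.95 ± 0.44 (SE), adjusted p = 0.000237). Neither gene overlapped, Lgr5 GL replicate b was the highest of its group in both, and without it the log2 fold change of Them5 was 3.64.

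Parp10, a mono-ADP-ribosyltransferase, was at 0 in 1 Lgr5 GL library and low in the others. It was at 50.9, 130.5 and 103 CPM in Lrig1 GL and 0, 4.57 and 4.6 CPM in Lgr5 GL cells (log2 fold change 4.81 ± 0.75 (SE), adjusted p = 0.000367). Avpi1, a gene induced by vasopressin, was at 367, 445 and 381 CPM in Lrig1 GL and 128, 73.1 and 78.1 CPM in Lgr5 GL cells (log2 fold change 2.10 ± 0.30 (SE), adjusted p = 0.000128). Wdr61, which serves both the PAF1 transcription complex and the SKI RNA decay complex, was at 378, 346 and 363 CPM in Lrig1 GL and 103, 88 and 95.6 CPM in Lgr5 GL cells (log2 fold change 1.93 ± 0.28 (SE), adjusted p = 0.000146), and neither Avpi1 nor Wdr61 overlapped. Of the exon bases of Wdr61, 33.9% also belong to Dnaja4. Itm2b, a membrane protein of type II, was at 4455, 4321 and 4704 CPM in Lrig1 GL and 1753, 1971 and 1432 CPM in Lgr5 GL cells (log2 fold change 1.39 ± 0.22 (SE), adjusted p = 0.000367), the smallest difference of the 12.

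**Figure D2:**
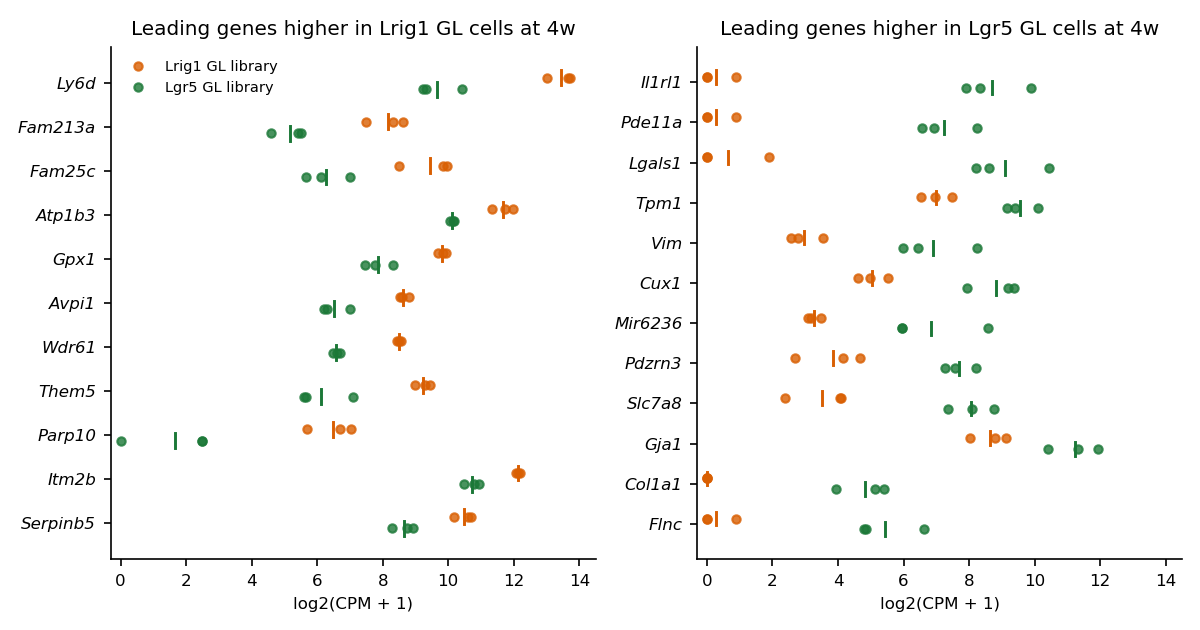
Each point is 1 library at 4w on a log2(CPM + 1) axis (Lrig1 GL in orange, Lgr5 GL in green) and each tick the mean of 3, for 11 leading genes higher in Lrig1 GL and 12 higher in Lgr5 GL cells. Genes higher in Lrig1 GL cells were well measured in both populations except Parp10, whereas Il1rl1, Pde11a, Lgals1, Col1a1 and Flnc were at or near 0 in every Lrig1 GL library.

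The 12 leading genes higher in Lgr5 GL cells held an interleukin receptor, a galectin and proteins of the actin and intermediate filament cytoskeleton. Il1rl1, the receptor ST2 for IL-33 (chromosome 1, 40429570 to 40465415, plus strand), was at 0, 0 and 0.833 CPM in Lrig1 GL and 944, 239 and 324 CPM in Lgr5 GL cells. It had 1 count in all Lrig1 GL libraries and 1479 in all Lgr5 GL libraries, a ratio of 2024 with an exact binomial 95% interval of 363 to 79997 for counting error alone (adjusted p = 6.24e-08). Pde11a, a phosphodiesterase of cAMP and cGMP, was at 0, 0 and 0.833 CPM in Lrig1 GL and 301, 93.7 and 120.4 CPM in Lgr5 GL cells, a ratio of 713 (127 to 28215, adjusted p = 8.75e-06). Lgals1, which encodes galectin-1, was at 2.7, 0 and 0 CPM in Lrig1 GL and 1379, 298 and 389 CPM in Lgr5 GL cells (log2 fold change -9.35 ± 1.15 (SE), adjusted p = 2.41e-05). In all 3 genes Lgr5 GL replicate a was the highest, and the populations were far apart in every library.

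The cytoskeletal genes were lower but present in Lrig1 GL cells, except Flnc. Tpm1, a tropomyosin of actin filaments, was at 92.5, 178 and 123 CPM in Lrig1 GL and 1099, 573 and 672 CPM in Lgr5 GL cells (log2 fold change -2.57 ± 0.33 (SE), adjusted p = 3.64e-05). Vim, the intermediate filament protein of mesenchymal cells, was at 4.87, 10.7 and 5.83 CPM in Lrig1 GL and 301, 62.3 and 85.5 CPM in Lgr5 GL cells (log2 fold change -4.35 ± 0.57 (SE), adjusted p = 4.57e-05). Flnc, the actin cross-linker filamin C, was at 0, 0 and 0.833 CPM in Lrig1 GL and 97.4, 28 and 26.7 CPM in Lgr5 GL cells, a ratio of 207 (36.5 to 8215, adjusted p = 0.000454). None of the 3 overlapped. Col1a1, a chain of type I collagen, was at 0, 0 and 0 CPM in Lrig1 GL and 41.3, 14.3 and 34 CPM in Lgr5 GL cells, at least 42.4-fold higher in Lgr5 GL cells against a floor of 3 counts over the 3 Lrig1 GL libraries (adjusted p = 0.000448).

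Gja1, a gap junction protein of the connexin family, was at 563, 439 and 262 CPM in Lrig1 GL and 3916, 1361 and 2553 CPM in Lgr5 GL cells (log2 fold change -2.63 ± 0.42 (SE), adjusted p = 0.000417). Slc7a8, an amino acid transporter, was at 16.2, 15.6 and 4.17 CPM in Lrig1 GL and 431, 163 and 273 CPM in Lgr5 GL cells (log2 fold change -4.55 ± 0.71 (SE), adjusted p = 0.000369). Cux1, a homeobox factor of the HF, was at 45.4, 23.6 and 30.8 CPM in Lrig1 GL and 247, 661 and 581 CPM in Lgr5 GL cells (log2 fold change -3.90 ± 0.52 (SE), adjusted p = 4.72e-05). Cux1 was the only leading gene of this direction whose highest Lgr5 GL library was not replicate a. Pdzrn3, a ubiquitin ligase with PDZ domains, was at 5.41, 24.7 and 16.7 CPM in Lrig1 GL and 295, 154 and 188 CPM in Lgr5 GL cells (log2 fold change -3.76 ± 0.57 (SE), adjusted p = 0.000273). Reads on Mir6236, counted over its annotated exon and not over a mature miRNA, were at 8.11, 10.2 and 7.5 CPM in Lrig1 GL and 385, 60.5 and 61.6 CPM in Lgr5 GL cells (log2 fold change -4.27 ± 0.61 (SE), adjusted p = 0.000128).

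Lgr5 GL replicate a, with the largest share of Gm12415 and the fewest counts tested, was the highest of its group in 11 of the 12 leading genes, in 49.1% of all 289 genes higher in Lgr5 GL cells and in 34.1% of all genes tested. Without it the log2 fold change was -3.34 for Vim and -2.81 for Mir6236, and 231 and 194 genes were called in the 2 directions. All 24 leading genes, picked by the smallest p in these same libraries, stayed called when any 1 of the 6 libraries was left out. Of the 80 called genes picked by all naming rules at 4w, 40 stayed called in every such fit. The fitted log2 fold changes of Il1rl1, Pde11a, Lgals1 and Flnc, which were near 0 in Lrig1 GL cells and depend on the prior count, moved most among the leading genes, whereas that of Col1a1, at 0 there, moved by at most 0.37. Il1rl1 ran from -13.24 without Lrig1 GL replicate c to -10.09 without Lgr5 GL replicate a, and Pde11a from -11.69 to -8.68 without the same libraries. Lgals1 ran from -13.68 without Lrig1 GL replicate a to -8.35 without Lgr5 GL replicate a. Flnc ran from -9.93 without Lrig1 GL replicate c to -6.66 without Lgr5 GL replicate a. Leaving out Lrig1 GL replicate b moved Lgals1 and Flnc by less than that.

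Il1rl1, Lgals1, Pde11a, Vim, Col1a1 and Mir6236 were also apart at every other time point, where the 18 libraries of a population did not overlap the 18 of the other. Over all time points Il1rl1 ran from 189 to 1002 CPM in the 18 Lgr5 GL libraries and from 0 to 1.97 CPM in the 18 Lrig1 GL libraries. Lgals1 ran from 298 to 1812 CPM against 0 to 31.2 CPM, and Vim from 62.3 to 377 CPM against 2.40 to 28.2 CPM. Gm12415 took 12.04 to 52.1% of the counts over the 18 Lgr5 GL libraries and had at most 4 counts in a Lrig1 GL library. At the other 5 time points, all 15 Lgr5 GL libraries lay above all 15 Lrig1 GL libraries for 27 of the 289 genes, or 9.34%, and for 60 of all genes tested. The opposite held for 4 of the 295 genes higher in Lrig1 GL cells, or 1.36%, and for 9 of all genes tested.

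Promoter windows (250 bases before to 50 after a start, RefSeq, GRCm38.p6) are shown for Krtdap and Them5, 2 genes higher in Lrig1 GL cells, for the driver gene Lrig1, and for Il1rl1 and Vim, 2 genes higher in Lgr5 GL cells. Capitals mark the AP-1 site TGANTCA, the TATA box TATAAA and the GC box GGGCGG, searched on both strands, and the CArG box, which can hold the letters of the TATA box, was searched too. Windows were matched for 428 of the 584 genes.
Krtdap, chr7:30787655-30787954, plus strand: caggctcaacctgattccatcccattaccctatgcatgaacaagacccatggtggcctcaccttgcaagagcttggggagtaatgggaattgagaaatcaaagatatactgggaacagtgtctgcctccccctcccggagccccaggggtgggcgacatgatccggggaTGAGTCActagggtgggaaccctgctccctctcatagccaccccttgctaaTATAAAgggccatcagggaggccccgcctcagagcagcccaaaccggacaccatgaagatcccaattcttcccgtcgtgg
Them5, chr3:94341849-94342148, plus strand: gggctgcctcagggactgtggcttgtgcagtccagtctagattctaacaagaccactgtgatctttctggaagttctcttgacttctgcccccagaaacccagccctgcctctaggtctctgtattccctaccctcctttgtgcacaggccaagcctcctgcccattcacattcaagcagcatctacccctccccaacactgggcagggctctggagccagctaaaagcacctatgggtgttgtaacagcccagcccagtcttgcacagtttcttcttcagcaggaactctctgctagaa
Lrig1, chr6:94700096-94700395, minus strand: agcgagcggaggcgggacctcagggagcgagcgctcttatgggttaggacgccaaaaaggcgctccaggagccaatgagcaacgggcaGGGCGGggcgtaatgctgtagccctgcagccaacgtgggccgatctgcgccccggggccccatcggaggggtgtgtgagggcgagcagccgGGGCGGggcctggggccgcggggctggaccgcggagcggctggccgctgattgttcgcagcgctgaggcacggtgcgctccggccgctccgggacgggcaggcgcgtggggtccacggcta
Il1rl1, first start, chr1:40429320-40429619, plus strand: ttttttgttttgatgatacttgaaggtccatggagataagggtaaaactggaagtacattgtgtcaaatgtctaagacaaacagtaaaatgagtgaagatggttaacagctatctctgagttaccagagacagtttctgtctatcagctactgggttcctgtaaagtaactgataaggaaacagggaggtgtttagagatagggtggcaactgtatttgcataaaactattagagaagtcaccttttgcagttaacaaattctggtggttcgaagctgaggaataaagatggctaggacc
Il1rl1, second start, chr1:40439379-40439678, plus strand: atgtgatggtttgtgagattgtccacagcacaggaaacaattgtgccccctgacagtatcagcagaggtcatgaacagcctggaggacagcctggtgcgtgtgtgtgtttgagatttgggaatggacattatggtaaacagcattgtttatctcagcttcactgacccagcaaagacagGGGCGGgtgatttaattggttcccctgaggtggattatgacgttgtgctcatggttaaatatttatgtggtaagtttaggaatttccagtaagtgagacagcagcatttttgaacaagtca
Vim, chr2:13574061-13574360, plus strand: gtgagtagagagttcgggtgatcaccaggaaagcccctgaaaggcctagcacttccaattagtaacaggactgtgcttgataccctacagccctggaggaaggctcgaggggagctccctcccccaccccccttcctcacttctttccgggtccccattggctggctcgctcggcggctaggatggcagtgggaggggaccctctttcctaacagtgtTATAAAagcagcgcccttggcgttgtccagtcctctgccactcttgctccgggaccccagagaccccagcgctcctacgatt
The AP-1 site was in 8.64% of the 220 windows of genes higher in Lrig1 GL and in 3.85% of the 208 windows of genes higher in Lgr5 GL cells, against 5.15% of the 10468 windows of genes tested and 7.81% of all 32851 promoters. The TATA box was in 13.2% and 9.13%, against 7.41% and 13.6%. The GC box was in 62.3% and 67.3%, against 64.0% and 35.7%, and the CArG box in 0.455% and 0.481%, against 1.39% and 1.63%. Krtdap held an AP-1 site and a TATA box, Vim a TATA box, Lrig1 and the second start of Il1rl1 GC boxes, and Them5 and the first start of Il1rl1 none of these letters. These are matches of letters and were not tested.

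Lists of genes with known roles were compared next, each beside the median of all genes tested, -0.11. The medians of the basal keratinocyte and glycolysis lists turned negative with DESeq2's size factors (-0.07 and -0.08). Those of the Notch, heat shock and polycomb lists turned positive with the GC trend removed (0.36, 0.18 and 0.01), while the other medians kept their sign under both. The sorted populations were checked first against the genes that drive Cre. Lgr5, a receptor for R-spondins that marks SCs of the lower HF (chromosome 10, 115450311 to 115587780, minus strand), was at 68.7, 6.44 and 54.2 CPM in Lrig1 GL and 271, 418 and 395 CPM in Lgr5 GL cells, without overlap (log2 fold change -3.07 ± 0.84 (SE), adjusted p = 0.0372). Lrig1, which dampens EGF receptor signalling in the junctional zone (chromosome 6, 94604529 to 94700158, minus strand), was at 49.8, 87 and 97.5 CPM in Lrig1 GL and 197, 172 and 226 CPM in Lgr5 GL cells. It was thus lower in the libraries labelled Lrig1 GL, again without overlap (log2 fold change -1.35 ± 0.36 (SE), adjusted p = 0.0332), so the Lrig1 transcript went against the label at 4w. The Cre cassettes sit in these loci, which therefore differ between the mice of the 2 populations by design. Gata6, which marks differentiating duct cells of the upper HF, was at 5.41, 55.8 and 41.7 CPM in Lrig1 GL and 13.3, 9.14 and 14.7 CPM in Lgr5 GL cells (adjusted p = 0.419), overlapping. Leaving out any library but Lgr5 GL replicate a ended the call of Lgr5, and leaving out any library but Lgr5 GL replicate b ended that of Lrig1, with log2 fold changes of -3.61 to -2.55 and -1.53 to -1.10.

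**Figure D3:**
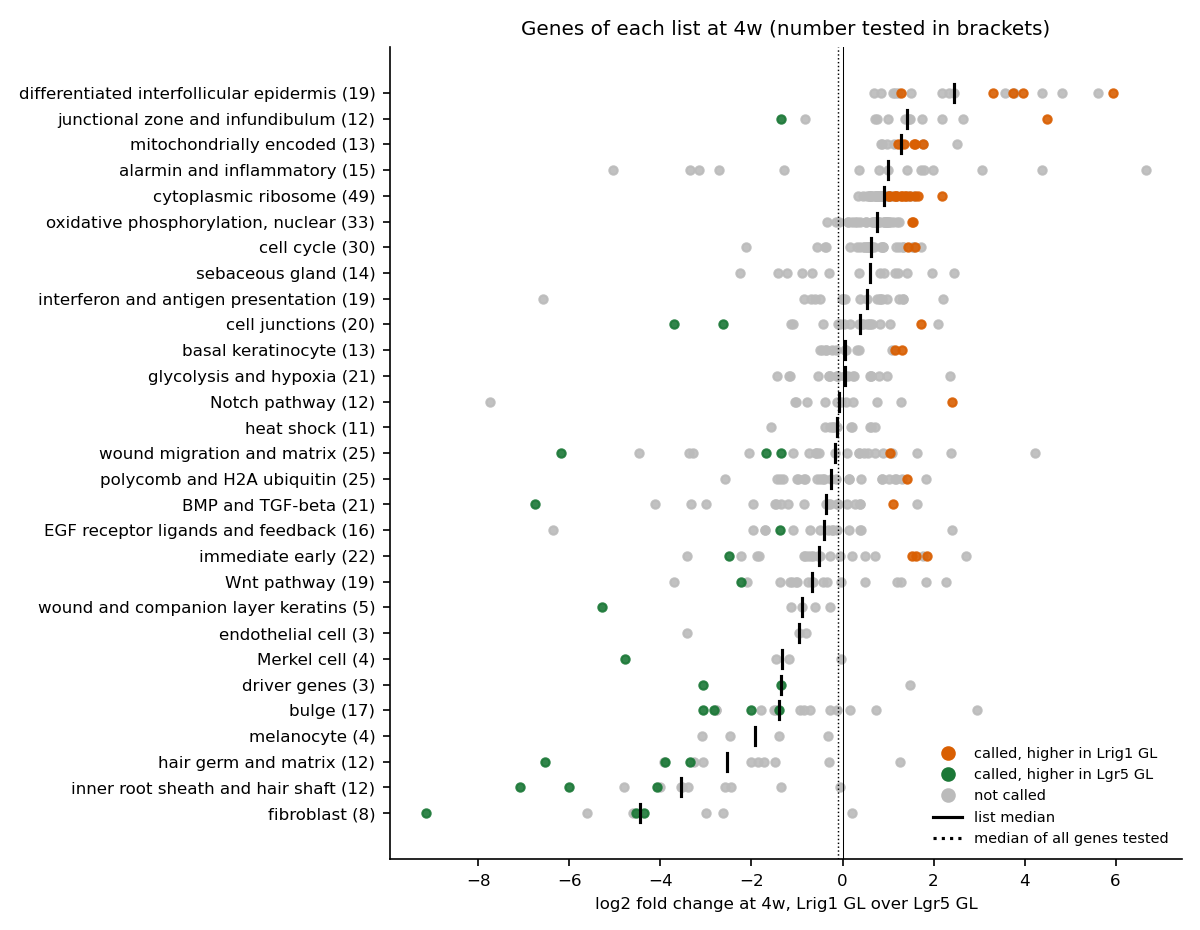
Each point is 1 gene's log2 fold change at 4w, Lrig1 GL over Lgr5 GL, in the list named at the left (genes tested in brackets), orange or green where called and grey where not. The black tick is the list's median and the dotted line the median of all genes tested, -0.11. The differentiated epidermis, mitochondrially encoded and ribosome lists lay wholly above 0 also with DESeq2's size factors and with the GC trend removed. The hair shaft list lay wholly below 0 except for 1 of its 12 genes once the GC trend was removed.

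Genes of the junctional zone and infundibulum lay mostly on the Lrig1 GL side by sign. Of 12 such genes 10 had a positive value, 1 was called higher in each population and the median was 1.41. Ly6a, which encodes the surface protein Sca-1 of the infundibulum and IFE, was at 688, 425 and 625 CPM in Lrig1 GL and 0, 36.6 and 37.7 CPM in Lgr5 GL cells (log2 fold change 4.48 ± 0.94 (SE), adjusted p = 0.00620). Lrig1 was the gene of the other direction. Krt79, a keratin of the duct and infundibulum, was at 771, 4703 and 4426 CPM in Lrig1 GL and 2182, 2101 and 1735 CPM in Lgr5 GL cells (adjusted p = 0.764). Plet1, a junctional zone marker, was at 57.9, 249.7 and 88.3 CPM in Lrig1 GL and 54.7, 94.2 and 47.8 CPM in Lgr5 GL cells (adjusted p = 0.365). Both Krt79 and Plet1 overlapped between the populations. Of 14 sebaceous gland genes edgeR's test called 0, with 5 at an unadjusted p under 0.05, 0 by DESeq2 and 1 by limma voom, and the median was 0.60. Before injury (0w) 5 of the 14 had been called higher in Lrig1 GL cells, with a median of 2.91. Pparg, a master factor of sebocytes, was at 2.7, 1.61 and 1.67 CPM in Lrig1 GL and 10.7, 12 and 6.43 CPM in Lgr5 GL cells (adjusted p = 0.163). Its means at 0w were 58.2 and 4.00 CPM. The difference between the populations changed from 0w to 4w by -6.10 ± 1.28 (SE), adjusted p = 0.0488 by edgeR's test. Scd1, a lipid desaturase, was at 334, 127 and 112 CPM in Lrig1 GL and 133, 76 and 116 CPM in Lgr5 GL cells (adjusted p = 0.423). Mgst1 was at 328, 286 and 384 CPM in Lrig1 GL and 156, 137 and 155 CPM in Lgr5 GL cells (adjusted p = 0.225). At 4w Pparg lay lower and Mgst1 higher in every Lrig1 GL library, and Scd1 overlapped.

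Genes of the lower HF lay mostly on the Lgr5 GL side by sign. Of 17 bulge genes 4 were called, all higher in Lgr5 GL cells, with a median of -1.41 and 14 negative values. Besides Lgr5 these were 3 transcription factors. Tcf7l2 was at 142, 111 and 146 CPM in Lrig1 GL and 411, 339.9 and 304 CPM in Lgr5 GL cells (log2 fold change -1.41 ± 0.33 (SE), adjusted p = 0.0133). Tcf7l1, which keeps HF SCs undifferentiated, was at 17.3, 0.537 and 21.7 CPM in Lrig1 GL and 111, 77.1 and 89.2 CPM in Lgr5 GL cells (log2 fold change -2.83 ± 0.71 (SE), adjusted p = 0.0230). Lrig1 GL replicate b had 1 count of Tcf7l1, and without that library the value was -2.24. Tbx1 was at 40, 60.7 and 59.2 CPM in Lrig1 GL and 167, 227 and 246 CPM in Lgr5 GL cells (log2 fold change -2.004 ± 0.55 (SE), adjusted p = 0.0391). The 3 factors did not overlap between populations. The bulge marker Krt15 was at 1279, 2384 and 3526 CPM in Lrig1 GL and 3683, 6139.8 and 3983 CPM in Lgr5 GL cells (adjusted p = 0.270). Its means at 0w were 6220 and 22088 CPM. Against the mean of the other 5 time points its difference at 4w had moved toward Lrig1 GL cells by 2.33 ± 0.53 (SE), adjusted p = 0.0447 by edgeR's test. The bulge marker Cd34 was at 16.8, 0 and 0 CPM in Lrig1 GL and 52, 37.1 and 32.2 CPM in Lgr5 GL cells (adjusted p = 0.298). Neither Krt15 nor Cd34 overlapped at 4w, and neither passed the test of the 4w difference. Without Lrig1 GL replicate b no bulge gene was called, 1 was higher in Lgr5 GL cells without Lrig1 GL replicate a or Lgr5 GL replicate c, and 2 or 3 were in the other fits. On the other side 3 bulge genes had a positive value, up to 2.96. DESeq2's Wald test and the likelihood ratio test each called 1 bulge gene higher in Lrig1 GL cells, and limma voom 0. The count was also 1 with the GC trend removed and without Lrig1 GL replicate a or Lgr5 GL replicate b.

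Of 12 hair germ and matrix genes 3 were higher in Lgr5 GL cells, with a median of -2.55 and 11 negative values. Besides Cux1 these were Ptch1 and Gli1, the receptor and a target factor of Hedgehog signalling. Ptch1 was at 16.8, 1.61 and 5.83 CPM in Lrig1 GL and 8, 109 and 133 CPM in Lgr5 GL cells (log2 fold change -3.36 ± 0.84 (SE), adjusted p = 0.0216). Gli1 was at 0.541, 0 and 0.833 CPM in Lrig1 GL and 0, 36 and 94.7 CPM in Lgr5 GL cells, a ratio of 114 (31.0 to 946, adjusted p = 0.0239). Both overlapped, since Lgr5 GL replicate a stood with the Lrig1 GL libraries and replicates b and c stood above. Both calls ended without Lrig1 GL replicate b or c or Lgr5 GL replicate c, that of Ptch1 also without Lgr5 GL replicate b and that of Gli1 also without Lrig1 GL replicate a. Ptch1 was at -4.57 on the log2 scale without Lrig1 GL replicate a, and Gli1 at -5.93 without Lrig1 GL replicate b and at -5.30 without Lgr5 GL replicate c. The 1 positive value of the list was 1.26. DESeq2's Wald test, the likelihood ratio test, limma voom and the fit with the GC trend removed each called 1 gene of the list higher in Lrig1 GL cells.

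Genes of the inner root sheath and hair shaft, keratins and others, lay on the Lgr5 GL side as well. All 12 genes tested had a negative value, 3 were called and the median was -3.54, against 0.01 at 0w. Krt35, a hair shaft keratin, was at 5.95, 0 and 0 CPM in Lrig1 GL and 25.3, 436 and 415 CPM in Lgr5 GL cells (log2 fold change -7.08 ± 1.51 (SE), adjusted p = 0.00707). Krt71, of the inner root sheath, was at 56.3, 0 and 8.33 CPM in Lrig1 GL and 332, 3544 and 349 CPM in Lgr5 GL cells (log2 fold change -6.01 ± 1.62 (SE), adjusted p = 0.0344). Krt28, of the same sheath, was at 8.66, 1.61 and 5 CPM in Lrig1 GL and 58.7, 86.8 and 115 CPM in Lgr5 GL cells (log2 fold change -4.08 ± 1.07 (SE), adjusted p = 0.0296). The populations did not overlap in these 3 genes. The 15 genes of the list in both tables summed to 208 to 360 CPM in Lrig1 GL and to 930, 6581 and 1835 CPM in Lgr5 GL libraries, so replicate b stood highest. Without Lgr5 GL replicate b the value of Krt71 was -3.95 and 1 gene was called, as without replicate c of either population or Lrig1 GL replicate b. Without Lrig1 GL replicate a the values of Krt35, Krt71 and Krt28 were -12.46, -8.57 and -4.73, and without Lrig1 GL replicate b that of Krt71 was -5.42 and that of Krt35 was -6.48. Of the 5 wound and companion layer keratins 1 was called, with a median of -0.89. Krt75, of the companion layer, was at 1.08, 11.3 and 15.8 CPM in Lrig1 GL and 73.4, 119.95 and 881 CPM in Lgr5 GL cells (log2 fold change -5.28 ± 1.32 (SE), adjusted p = 0.0222). Lgr5 GL replicate c lay far above the others, and without it the value was -3.40 and no longer called. Krt6a was at 633, 1004 and 557 CPM in Lrig1 GL and 1926, 1495 and 1382 CPM in Lgr5 GL cells (adjusted p = 0.154). Krt16 was at 84.4, 271 and 167 CPM in Lrig1 GL and 411, 122 and 103 CPM in Lgr5 GL cells (adjusted p = 0.917). Neither wound keratin was called, and reads of Krt6a and Krt6b cannot be told apart with certainty.

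Genes of the differentiated IFE lay on the Lrig1 GL side. Of 19 such genes 5 were called, each higher in Lrig1 GL cells, all 19 had a positive value and the median was 2.45. Krtdap, a secreted protein of suprabasal keratinocytes, was at 2343, 4359 and 4743 CPM in Lrig1 GL and 412, 584 and 156 CPM in Lgr5 GL cells (log2 fold change 3.31 ± 0.53 (SE), adjusted p = 0.000419). Krt10, the keratin of spinous cells, was at 5173, 15642 and 12241 CPM in Lrig1 GL and 34.7, 1932 and 495 CPM in Lgr5 GL cells (log2 fold change 3.74 ± 0.94 (SE), adjusted p = 0.0224). Krt2, of the upper spinous and granular layers, was at 948, 2489 and 8153 CPM in Lrig1 GL and 1.33, 161 and 20.2 CPM in Lgr5 GL cells (log2 fold change 5.94 ± 1.69 (SE), adjusted p = 0.0449). All 3 were higher in every Lrig1 GL library, and Krt10 and Krt2 spread widely among the Lgr5 GL libraries. Without Lgr5 GL replicate b the values of Krt10, Krt2 and Mt4 were 5.38, 8.39 and 4.98, and without Lrig1 GL replicate c that of Krt2 was 4.77. Mt4, a metallothionein of stratified epithelia, was at 467, 2237 and 1405 CPM in Lrig1 GL and 0, 174 and 84.6 CPM in Lgr5 GL cells (log2 fold change 3.96 ± 1.10 (SE), adjusted p = 0.0404). Dmkn, the secreted dermokine, was at 1095, 2125 and 1822 CPM in Lrig1 GL and 749.6, 877 and 449 CPM in Lgr5 GL cells (log2 fold change 1.28 ± 0.32 (SE), adjusted p = 0.0207). Krt1, the partner of Krt10, was at 3788, 14472 and 6251 CPM in Lrig1 GL and 9.34, 1711 and 345 CPM in Lgr5 GL cells and did not overlap, but missed the threshold (adjusted p = 0.0534). Without Lgr5 GL replicate c, Lrig1 GL replicate b or Lrig1 GL replicate c 1 gene of the list was called, and 2 without Lgr5 GL replicate a.

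The list summed to 14343, 44046 and 38539 CPM in Lrig1 GL and to 1711, 6163 and 2379 CPM in Lgr5 GL libraries. The 13 basal keratinocyte genes had a median of 0.06, and 2 were higher in Lrig1 GL cells. Krt14, the basal keratin, was at 16871, 12595 and 18114 CPM in Lrig1 GL and 7558, 6472 and 5186 CPM in Lgr5 GL cells (log2 fold change 1.31 ± 0.27 (SE), adjusted p = 0.00620). Dst, a linker of hemidesmosomes to keratin, was at 539, 605 and 418 CPM in Lrig1 GL and 239, 227 and 233 CPM in Lgr5 GL cells (log2 fold change 1.16 ± 0.33 (SE), adjusted p = 0.0438). Krt5, the partner of Krt14, was at 4121, 4533 and 4205 CPM in Lrig1 GL and 4291, 3039.9 and 2668 CPM in Lgr5 GL cells (adjusted p = 0.390). Trp63, the master factor of the epidermis, was at 414, 358 and 246 CPM in Lrig1 GL and 219, 402 and 579 CPM in Lgr5 GL cells (adjusted p = 0.774). Both Krt5 and Trp63 overlapped between the populations, the call of Krt14 ended without Lgr5 GL replicate c, and that of Dst without any 1 of the 6 libraries. The basal list summed to 20993 to 25651 CPM in Lrig1 GL and to 11595 to 15796 CPM in Lgr5 GL libraries.

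Immediate early genes, which respond to stimuli and cell handling within minutes, were called in both directions. Of 22 such genes 3 were higher in Lrig1 GL and 1 was higher in Lgr5 GL cells, with a median of -0.52. Jun, a subunit of AP-1, was at 89.8, 133 and 75 CPM in Lrig1 GL and 520.2, 508 and 662 CPM in Lgr5 GL cells (log2 fold change -2.50 ± 0.45 (SE), adjusted p = 0.00137). Myc was at 108, 282 and 240.03 CPM in Lrig1 GL and 58.7, 78.8 and 35.8 CPM in Lgr5 GL cells (log2 fold change 1.85 ± 0.39 (SE), adjusted p = 0.00589). Klf4, a factor of epidermal differentiation, was at 252, 493 and 242 CPM in Lrig1 GL and 129, 117 and 77.2 CPM in Lgr5 GL cells (log2 fold change 1.61 ± 0.43 (SE), adjusted p = 0.0331). Ier3 was at 263, 200.3 and 432 CPM in Lrig1 GL and 113, 87.4 and 111 CPM in Lgr5 GL cells (log2 fold change 1.52 ± 0.41 (SE), adjusted p = 0.0359). None of these 4 genes overlapped between the populations, and the call of Jun held whichever library was left out. Myc was lost without Lgr5 GL replicate c alone, and Klf4 and Ier3 without 4 and 5 of the 6 libraries. Of 15 alarmin and inflammatory genes, 11 heat shock genes and 19 interferon and antigen presentation genes edgeR's test called 0, with 5, 1 and 4 at an unadjusted p under 0.05. DESeq2's Wald test called 2, 0 and 1 of them and limma voom 1, 0 and 1, and the medians were 0.99, -0.12 and 0.54.

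Cell cycle genes were mostly on the Lrig1 GL side by sign, 26 of 30 against 7680 of all 16652 genes tested. Their median was 0.63, and 2 were called, beside 1.77% of all genes tested called higher in Lrig1 GL cells. Pcna, the sliding clamp of DNA replication, was at 220.2, 186 and 150.02 CPM in Lrig1 GL and 60, 60 and 65.3 CPM in Lgr5 GL cells (log2 fold change 1.59 ± 0.39 (SE), adjusted p = 0.0200). Cdkn1a, which encodes the cell cycle inhibitor p21, was at 179, 714 and 505 CPM in Lrig1 GL and 171, 201 and 142 CPM in Lgr5 GL cells (log2 fold change 1.44 ± 0.35 (SE), adjusted p = 0.0167). The libraries of Cdkn1a overlapped. The call of Pcna ended without any library but Lrig1 GL replicate c, and that of Cdkn1a without Lrig1 GL replicate b or c or Lgr5 GL replicate a or c. Of 25 genes of polycomb complexes, which silence genes through chromatin, and of H2A ubiquitin turnover, 1 was called, with a median of -0.25. Usp16, which removes ubiquitin from H2A, was at 253, 242 and 372 CPM in Lrig1 GL and 94.7, 164 and 62.5 CPM in Lgr5 GL cells (log2 fold change 1.42 ± 0.38 (SE), adjusted p = 0.0301). Its call ended without Lrig1 GL replicate b or c or Lgr5 GL replicate a or c.

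Genes of translation and respiration lay on the Lrig1 GL side. All 49 cytoplasmic ribosome genes had a positive value, with a median of 0.92, and 13 were called, all higher in Lrig1 GL cells. Rplp0, of the ribosomal stalk, was at 1133, 1592 and 1416 CPM in Lrig1 GL and 488, 544 and 343 CPM in Lgr5 GL cells (log2 fold change 1.59 ± 0.26 (SE), adjusted p = 0.000448). Rpl11 was at 261, 286 and 216 CPM in Lrig1 GL and 140.05, 95.4 and 80 CPM in Lgr5 GL cells (log2 fold change 1.28 ± 0.29 (SE), adjusted p = 0.0109). Rps4x was at 394, 525 and 389 CPM in Lrig1 GL and 269, 180.5 and 128 CPM in Lgr5 GL cells (log2 fold change 1.18 ± 0.27 (SE), adjusted p = 0.0121). Rpl32 was at 345, 440.3 and 379 CPM in Lrig1 GL and 219, 134 and 100.2 CPM in Lgr5 GL cells (log2 fold change 1.37 ± 0.31 (SE), adjusted p = 0.0123). These 4 genes did not overlap between the populations, and part of the exon bases of Rpl32 also belong to Snora7a. The list had 8 calls with DESeq2's size factors and 25 with the GC trend removed. Without 1 library between 1 gene (Lgr5 GL replicate c) and 23 genes (Lgr5 GL replicate a) of the list were called, with 2 (Lrig1 GL replicate b), 3 (Lgr5 GL replicate b), 8 (Lrig1 GL replicate c) and 12 (Lrig1 GL replicate a) between. Ribosomal genes have many processed pseudogenes, and reads shared with them cannot be told apart.

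All 13 mitochondrially encoded genes had a positive value too, with a median of 1.29, and 5 were higher in Lrig1 GL cells. The complex I gene mt-Nd6 was at 493, 373 and 501 CPM in Lrig1 GL and 149, 192 and 108 CPM in Lgr5 GL cells (log2 fold change 1.6 ± 0.31 (SE), adjusted p = 0.00306). The complex IV gene mt-Co1 was at 14764, 5188 and 4789 CPM in Lrig1 GL and 1983, 3683 and 1538 CPM in Lgr5 GL cells (log2 fold change 1.78 ± 0.50 (SE), adjusted p = 0.0415). Of the same complex I, mt-Nd5 was at 1592, 1182 and 1409 CPM in Lrig1 GL and 288, 740.3 and 373 CPM in Lgr5 GL cells (log2 fold change 1.57 ± 0.37 (SE), adjusted p = 0.0142). Also of complex I, mt-Nd4 was at 2954, 1809 and 1636 CPM in Lrig1 GL and 712, 1178 and 601 CPM in Lgr5 GL cells (log2 fold change 1.36 ± 0.36 (SE), adjusted p = 0.0310). The populations did not overlap in these 4 genes. Lrig1 GL replicate a, with the largest mitochondrial share, was the highest library in mt-Co1, mt-Nd4 and mt-Nd5, and without it the value of mt-Co1 was 1.06, 2 genes of the list were called and 3 of the 13 turned negative. Without Lgr5 GL replicate a or c 1 was called, and 3 without Lrig1 GL replicate b, while DESeq2's size factors gave 3 calls. Of 33 nuclear genes of oxidative phosphorylation 2 were higher in Lrig1 GL cells, with a median of 0.75 and 30 positive values. Ndufb3, of complex I, was at 205, 162 and 150.02 CPM in Lrig1 GL and 54.7, 77.7 and 43.2 CPM in Lgr5 GL cells (log2 fold change 1.55 ± 0.28 (SE), adjusted p = 0.00163). Ndufa4, a respiratory chain subunit, was at 443, 419.9 and 418 CPM in Lrig1 GL and 203, 145 and 96.5 CPM in Lgr5 GL cells (log2 fold change 1.53 ± 0.37 (SE), adjusted p = 0.0165). Without Lgr5 GL replicate a 7 were called, 1 without Lgr5 GL replicate b or c, and 6 with the GC trend removed. Of 21 glycolysis and hypoxia genes edgeR's test called 0, with 3 at an unadjusted p under 0.05, 2 by DESeq2 and 0 by limma voom, and the median was 0.05. Genes higher in Lrig1 GL cells had shorter transcripts, as given above, and many ribosomal and respiratory transcripts are short. The part of length in these lists was not tested.

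Signalling lists held few calls, beside 1.77% and 1.74% of all genes tested called higher in Lrig1 GL and Lgr5 GL cells. Of 19 Wnt pathway genes 1 was called, with a median of -0.66. Lgr4, the broadly expressed homologue of Lgr5, was at 137, 209.96 and 138 CPM in Lrig1 GL and 572, 868 and 836 CPM in Lgr5 GL cells (log2 fold change -2.23 ± 0.42 (SE), adjusted p = 0.00226). Of 16 genes of EGF receptor ligands and feedback 1 was called, with a median of -0.41. Spry2, a feedback inhibitor of this pathway, was at 52.5, 43.5 and 66.7 CPM in Lrig1 GL and 125, 171 and 126 CPM in Lgr5 GL cells (log2 fold change -1.38 ± 0.31 (SE), adjusted p = 0.0105). Neither overlapped, Lgr4 stayed called whichever library was left out, and the call of Spry2 ended without replicate b of either population.

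Of 21 genes of BMP and TGF-beta signalling 1 was higher in each population, with a median of -0.36. Grem1, a secreted BMP antagonist, was at 0.541, 0 and 0 CPM in Lrig1 GL and 12, 14.3 and 56.1 CPM in Lgr5 GL cells, a ratio of 130 (22.8 to 5188, adjusted p = 0.0230). Tgfbi, a matrix protein induced by TGF-beta, was at 523, 511 and 452 CPM in Lrig1 GL and 205, 293 and 193 CPM in Lgr5 GL cells (log2 fold change 1.10 ± 0.29 (SE), adjusted p = 0.0294). Of 12 Notch genes 1 was called, with a median of -0.08. Rbpj, the DNA-binding partner of the Notch intracellular domain, was at 74.1, 66.6 and 43.3 CPM in Lrig1 GL and 20, 2.28 and 13.8 CPM in Lgr5 GL cells (log2 fold change 2.40 ± 0.67 (SE), adjusted p = 0.0404). Grem1, Tgfbi and Rbpj did not overlap, but each call ended without at least 4 of the 6 libraries taken singly, and Grem1 was at -9.05 without Lrig1 GL replicate a and at -5.72 without Lgr5 GL replicate c.

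Genes of migration and cell contact split between the populations. Of 25 wound migration and matrix genes 3 were higher in Lgr5 GL and 1 was higher in Lrig1 GL cells, with a median of -0.16, or 0 with genes at 0 counts in 1 population set at their bound. Fn1, the provisional matrix protein fibronectin, was at 2.7, 0 and 2.5 CPM in Lrig1 GL and 201, 89.7 and 88.2 CPM in Lgr5 GL cells (log2 fold change -6.19 ± 1.09 (SE), adjusted p = 0.00118). Flna, the actin cross-linker filamin A, was at 128, 134 and 95 CPM in Lrig1 GL and 419, 303 and 417 CPM in Lgr5 GL cells (log2 fold change -1.67 ± 0.32 (SE), adjusted p = 0.00301). Myh9, the heavy chain of non-muscle myosin IIA, was at 148, 149.8 and 110.01 CPM in Lrig1 GL and 391, 286 and 365 CPM in Lgr5 GL cells (log2 fold change -1.35 ± 0.34 (SE), adjusted p = 0.0223). The 3 genes were higher in every Lgr5 GL library. Fn1 was at -6.82 without Lrig1 GL replicate a and at -5.56 without Lrig1 GL replicate b, and the call of Myh9 held only without Lgr5 GL replicate b. Arpc2, a subunit of the Arp2/3 complex that branches actin, was at 884, 688 and 704 CPM in Lrig1 GL and 443, 342 and 324 CPM in Lgr5 GL cells (log2 fold change 1.04 ± 0.28 (SE), adjusted p = 0.0315). Its call held only without Lgr5 GL replicate a. Of 20 cell junction genes 2 were higher in Lgr5 GL and 1 was higher in Lrig1 GL cells, with a median of 0.39. Besides Gja1, the connexin gene Gjb2 was higher in Lgr5 GL cells, at 63.8, 27.9 and 13.3 CPM in Lrig1 GL and 507, 254 and 634 CPM in Lgr5 GL cells (log2 fold change -3.71 ± 0.99 (SE), adjusted p = 0.0333). The call of Gjb2 held only without Lrig1 GL replicate a (-4.46) or Lgr5 GL replicate b.

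Markers of cells other than keratinocytes moved with some of these groups. Of 8 fibroblast genes 3 were higher in Lgr5 GL cells and 1 had a positive value (0.21), with a median of -4.44. The sum of the 8 was 185 to 343 CPM in Lrig1 GL and 402 to 767 CPM in Lgr5 GL libraries, highest in replicate a. In Lrig1 GL libraries most of the sum came from members other than Col1a1, Col1a2, Col3a1 and Vim. At 0w 5 of the 8 had already been called higher in Lgr5 GL cells. Besides Col1a1 and Vim, Col1a2 was at 0, 0 and 7.5 CPM in Lrig1 GL and 100.03, 24.6 and 31.3 CPM in Lgr5 GL cells (log2 fold change -4.53 ± 1.29 (SE), adjusted p = 0.0449). Col3a1 was at 0, 0.537 and 0 CPM in Lrig1 GL and 29.3, 8 and 0 CPM in Lgr5 GL cells (adjusted p = 0.0965). The call of Col1a2 ended without any library but Lrig1 GL replicate c, where it was at -9.95. Acta2, an actin of smooth muscle and myofibroblasts, was at 1.08, 2.15 and 5.83 CPM in Lrig1 GL and 308, 88 and 107 CPM in Lgr5 GL cells (log2 fold change -5.87 ± 1.15 (SE), adjusted p = 0.00325). Its value was -6.63 without Lrig1 GL replicate c and -5.09 without Lgr5 GL replicate a. Krt8, a keratin of Merkel cells and simple epithelia, was at 3.25, 0.537 and 1.67 CPM in Lrig1 GL and 61.4, 49.1 and 44.1 CPM in Lgr5 GL cells (log2 fold change -4.78 ± 1.17 (SE), adjusted p = 0.0194). The other Merkel cell keratins Krt18 and Krt20 were at most 7.35 CPM in any library. The call of Krt8 ended without Lrig1 GL replicate b or c, and its value was -5.57 without Lrig1 GL replicate a. Of 13 immune markers 1 was in both tables, of 8 endothelial markers 3 and of 7 melanocyte markers 4. The edgeR test called 0 of these, with 0, 1 and 1 at an unadjusted p under 0.05, 0 by DESeq2 and 1 melanocyte marker by limma voom. Their sums were 0 to 3.25, 2.15 to 8.33 and 4.87 to 21.5 CPM in Lrig1 GL and 1.14 to 4.00, 11.03 to 20.01 and 17.3 to 73.5 CPM in Lgr5 GL libraries. The immune marker Ptprc was at most 4.00 CPM, the endothelial marker Pecam1 at most 5.83 CPM and the melanocyte marker Dct at most 15.04 CPM, with adjusted p = 0.920, 0.779 and 0.918. The fibroblast sum, Acta2, Il1rl1, Lgals1, Flnc and Gm12415 were all highest in replicate a among the Lgr5 GL libraries, and the part of other cells in the cytoskeletal and matrix genes above was not tested.

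Whether a difference had arisen since 0w was asked by comparing the population difference at 4w with that before injury (0w, 3 libraries per population). The series holds no unwounded library at 4w, so the wound, age and time since labelling cannot be told apart in this contrast. It had changed for 15 genes, 0.0901% of those tested, with 6 higher and 9 lower at 4w relative to 0w, by adjusted p and a change above 1 on the log2 scale. At 4w itself 47 of the 295 genes higher in Lrig1 GL cells, or 15.9%, were also called higher at 0w, and 71 of the 289 genes higher in Lgr5 GL cells, or 24.6%. These were 26.6% of the 177 and 26.6% of the 267 genes called at 0w.

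Lrig1 itself was among the 15. At 0w it was at 240, 265 and 196 CPM in Lrig1 GL and at 161, 107 and 53.1 CPM in Lgr5 GL cells, higher in Lrig1 GL libraries without overlap. This was the opposite of 4w but not called (log2 fold change 1.13, adjusted p = 0.0840). The difference changed by -2.47 ± 0.51 (SE), adjusted p = 0.0483. Cst3, which encodes the secreted protease inhibitor cystatin C, was at 636, 1034 and 852 CPM in Lrig1 GL and 280.1, 319.9 and 283 CPM in Lgr5 GL cells at 4w (log2 fold change 1.51 ± 0.32 (SE), adjusted p = 0.00637). Its means at 0w were 662 ± 107 and 1281 ± 143 CPM (SD, n = 3) in Lrig1 GL and Lgr5 GL cells. Every Lrig1 GL library lay below every Lgr5 GL library at 0w and above it at 4w, a change of 2.46 ± 0.45 (SE), adjusted p = 0.0287. Them5, given above at 4w, was at 134 ± 64.8 and 139.5 ± 16.4 CPM at 0w, where the populations overlapped, and changed by 3.01 ± 0.59 (SE), adjusted p = 0.0402. Krt28 was at 13 ± 12.9 and 1.06 ± 0.936 CPM at 0w and changed by -7.59 ± 1.52 (SE), adjusted p = 0.0402.

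**Figure D4:**
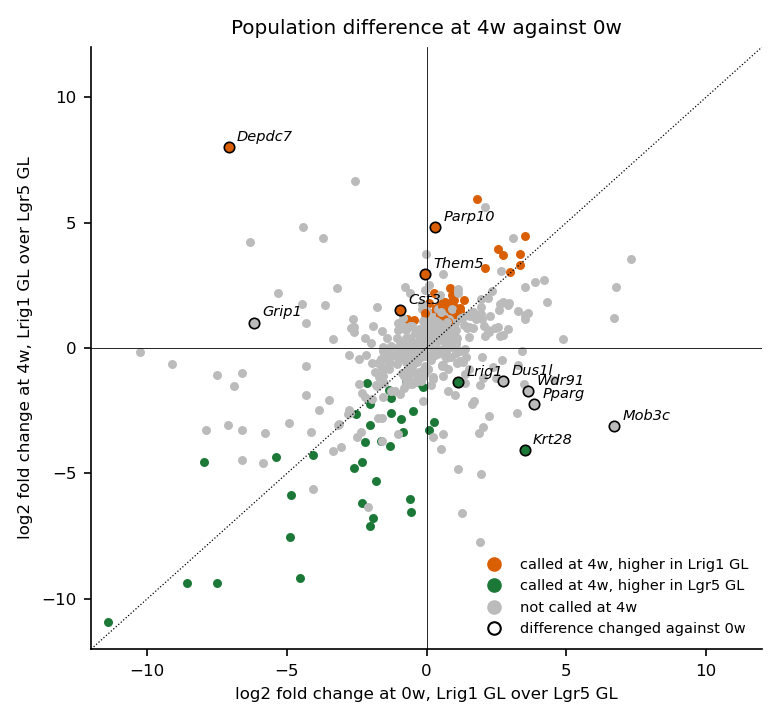
Each point is a list gene or named gene, with the log2 fold change (Lrig1 GL over Lgr5 GL) at 0w on the x axis and at 4w on the y axis, coloured where called at 4w. Outlined and named genes changed between the time points and lie off the dotted line of equal difference, Lrig1 among them at 1.13 and -1.35.

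The other genes named by this test were low in at least 1 group, so their values on the log2 scale depend on the prior count. Grip1, a scaffold protein, was at 45.4, 31.7 and 26.7 CPM in Lrig1 GL and 12, 15.4 and 23.9 CPM in Lgr5 GL cells at 4w. Its means at 0w were 0.661 ± 0.583 and 54.1 ± 39.7 CPM, and the difference changed by 7.18 ± 1.17 (SE), adjusted p = 0.0164. Depdc7 was at 28.7, 11.3 and 0 CPM in Lrig1 GL and 0, 0 and 0 CPM in Lgr5 GL cells at 4w and at 0.147 ± 0.255 and 30.7 ± 30.4 CPM at 0w (adjusted p = 0.0402). Dus1l, a dihydrouridine synthase of tRNA, was at 36.8, 8.59 and 29.2 CPM in Lrig1 GL and 81.4, 64.5 and 38.6 CPM in Lgr5 GL cells at 4w. Its means at 0w were 87.8 ± 55.2 and 13.3 ± 6.19 CPM, and the difference changed by -4.04 ± 0.71 (SE), adjusted p = 0.0275. By their means, Grip1 and Depdc7 went from higher in Lgr5 GL to higher in Lrig1 GL cells and Dus1l the other way. Mob3c was at 0, 6.44 and 2.5 CPM in Lrig1 GL and 2.67, 37.7 and 37.7 CPM in Lgr5 GL cells at 4w and at 28 ± 15.4 and 0.19 ± 0.328 CPM at 0w (adjusted p = 0.0402). Wdr91, of endosomes, was at 8.66, 10.2 and 6.67 CPM in Lrig1 GL and 10.7, 39.4 and 33.1 CPM in Lgr5 GL cells at 4w and at 44.5 ± 24.7 and 3.47 ± 2.23 CPM at 0w (adjusted p = 0.0402). Mob3c and Wdr91 went the way of Dus1l. Of the 15 genes, Lrig1 included, 0 stayed called without Lgr5 GL replicate a, 1 without Lrig1 GL or Lgr5 GL replicate b, 2 without Lgr5 GL replicate c, 3 without Lrig1 GL replicate a and 4 without Lrig1 GL replicate c. DESeq2's Wald test called 170 genes here.

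Against the mean of the other 5 time points the population difference at 4w had changed for 66 genes, 0.396% of those tested, with 45 toward Lrig1 GL and 21 toward Lgr5 GL cells. Cst3 changed by 2.51 ± 0.35 (SE), adjusted p = 0.00108, and it stayed called whichever library was left out. Them5 changed by 2.71 ± 0.47 (SE), adjusted p = 0.00955, Parp10 by 4.38 ± 0.78 (SE), adjusted p = 0.00955 and Rabac1, a partner of Rab GTPases, by 2.08 ± 0.37 (SE), adjusted p = 0.00955. Rabac1 was at 249, 271 and 393 CPM in Lrig1 GL and 96, 124 and 66.2 CPM in Lgr5 GL cells at 4w without overlap.

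Toward Lgr5 GL cells, Rif1, which times DNA replication, was at 43.3, 52.6 and 34.2 CPM in Lrig1 GL and 34.7, 74.8 and 79.1 CPM in Lgr5 GL cells at 4w and changed by -2.52 ± 0.44 (SE), adjusted p = 0.00955. Tia1, an RNA-binding protein of stress granules, was at 60.6, 36 and 44.2 CPM in Lrig1 GL and 81.4, 163 and 165 CPM in Lgr5 GL cells (log2 fold change -1.55 ± 0.38 (SE), adjusted p = 0.0182). Its difference changed by -2.35 ± 0.41 (SE), adjusted p = 0.00955. Rif1 overlapped between the populations at 4w and Tia1 did not. Nrep, the neuronal regeneration related protein also known as P311, was at 55.7, 26.3 and 46.7 CPM in Lrig1 GL and 363, 276 and 346 CPM in Lgr5 GL cells and changed by -2.98 ± 0.56 (SE), adjusted p = 0.0157. It was higher in every Lgr5 GL library at 4w. Without Lrig1 GL replicate b, Lrig1 GL replicate c or Lgr5 GL replicate c 1 of the 66 genes stayed called, and 20, 35 or 56 without Lgr5 GL replicate b, Lgr5 GL replicate a or Lrig1 GL replicate a.

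**Figure D5:**
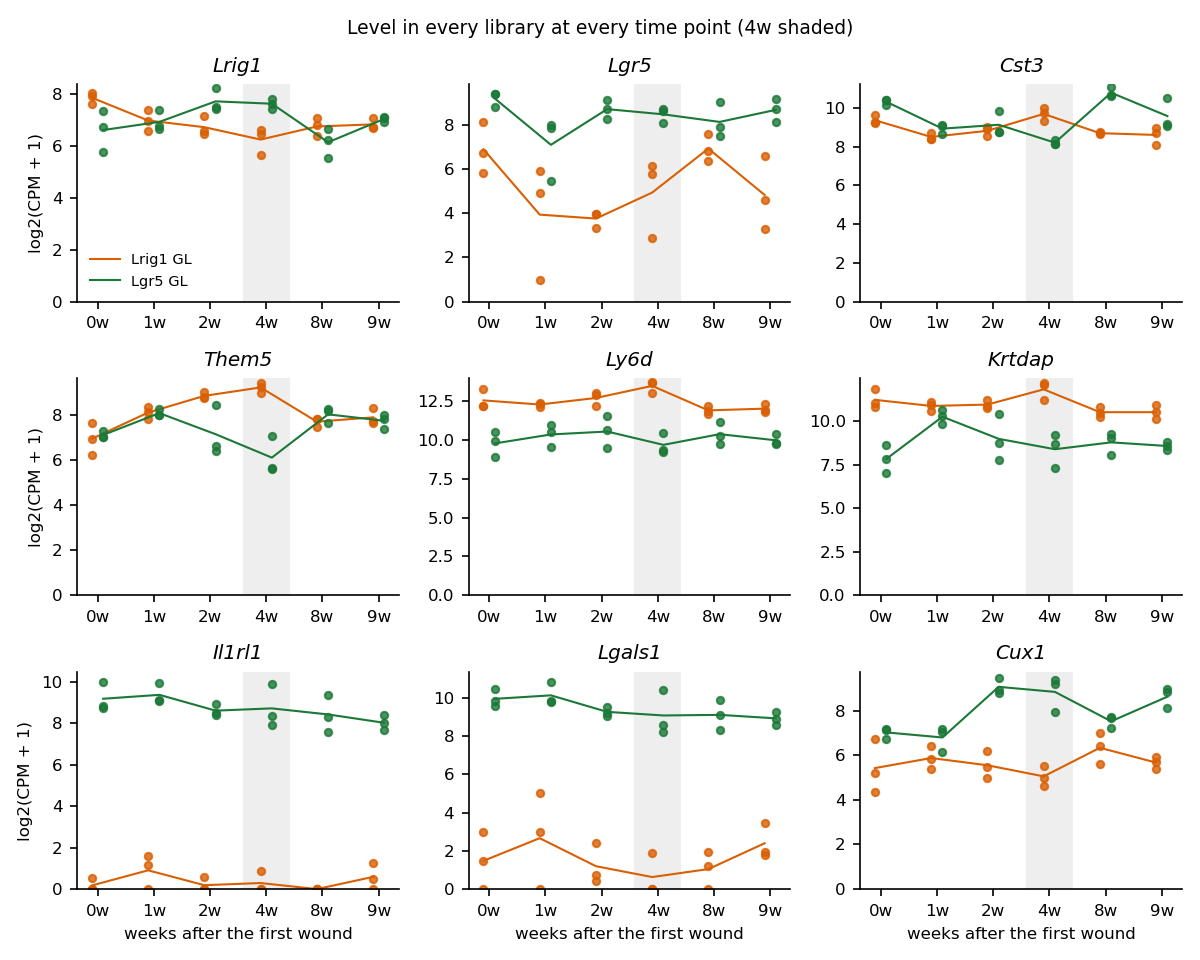
Points give the level in every library on a log2(CPM + 1) axis and lines the mean of 3 per population, over weeks after the first wound (9w is 1 week after the second wound), with 4w shaded. Lrig1, Cst3 and Them5 changed places or parted at 4w relative to 0w, whereas Ly6d, Il1rl1 and Lgals1 kept the populations apart at every time point.

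The genes called at 4w were followed at the other time points. Of the 295 genes higher in Lrig1 GL cells, 15 were also called in the same direction at 1w, 50 at 2w, 87 at 8w and 97 at 1 week after the second wound, 138 at no other time point and 1 at all 5. Of the 289 genes higher in Lgr5 GL cells the counts were 44, 86, 91 and 103, with 129 at no other time point and 18 at all 5. In the opposite direction 13 of the 295 and 5 of the 289 genes were called at 8w, 2 and 3 at 1w, 3 and 0 at 1 week after the second wound, 1 and 0 at 0w, and 0 of either at 2w. At 1w 148 of the 295 and 227 of the 289 genes had the sign they had at 4w. As shares of all genes called in the same direction, the shared genes were 4.40% of 341 and 17.1% of 258 at 1w. At 2w they were 44.6% of 112 and 46.2% of 186, and at 8w 8.32% of 1046 and 9.92% of 917. At 1 week after the second wound they were 15.6% of 622 and 23.5% of 438. The number of genes called thus differed between time points, and the shared counts were not tested against it.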

How the data were processed

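Smart-seq2 libraries of small, fixed numbers of sorted tdTomato+ cells were sequenced by the authors, who deposited 1 table of raw counts per gene name for each population. The deposited counts came from reads trimmed with Trim Galore (0.5.0 in the submitters' notes), aligned with HISAT2 to GRCm38 and counted over exons with featureCounts on a GENCODE annotation, with no molecular identifiers, so every interval covers counting error only. Whether counting used strand is not given in the sources used here, so overlapping and antisense genes cannot be told apart. Replicates at 4w are called a, b and c, since the table columns and the sample titles number them differently.

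The members and gene lists were chosen with earlier results of these data known. All 36 libraries (765252 to 6960537 counts) entered 1 edgeR (4.0.16) quasi-likelihood fit with a coefficient for each of 12 groups, in R 4.3.3. Gm12415 was removed from the 18865 genes named in both tables, genes were kept by filterByExpr (minimum count 10), libraries were scaled by TMM, and p-values were adjusted by Benjamini-Hochberg over 16652 genes. A call needed an adjusted p under 0.05 and a log2 change above 1. The common biological coefficient of variation was 0.681. Text names the 12 called genes per direction with the smallest adjusted p, a mean of at least 10 counts and no overlap, up to 4 called members of each list and the first 3 members of cell type lists, and 4 genes per direction of each contrast over time. It also names the 5 highest genes per table of those in 1 table alone, and symbols starting with Gm or ending with Rik are not named except Gm12415. A few genes picked by these rules are not reported here but stay in all counts. Bounds used a floor of 3 counts over a group, and 95% intervals of ratios were exact (Clopper-Pearson). Positions, lengths and GC content came from the GENCODE annotation of GRCm38 in hand, which held 99.5% of genes tested, and promoter windows from RefSeq. Alternatives used DESeq2 (1.42.0), limma (3.58.1) and sva (3.50.0). The study reports processing the normalized counts of each population with sva, whereas the surrogate variables here were estimated over both populations. The main fit used none. The tests were checked on simulated counts. Replicate numbers did not pair the samples (correlation of deviations -0.0311, -0.00981 and -0.0501).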

Additional observations from a re-analysis of the deposited data

Results flagged for a closer look

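The difference between Lrig1 GL and Lgr5 GL cells at 4w differed from that at 0w for 15 genes and from the mean of the other 5 time points for 66, each by a test of the change itself. Relative to 0w, the log2 difference changed by 3.01 for Them5, 2.46 for Cst3, 7.18 for Grip1 and 15.10 for Depdc7 toward Lrig1 GL cells, the last a fitted value that depends on the prior count. It changed by -2.47 for Lrig1, -7.59 for Krt28, -4.04 for Dus1l, -9.82 for Mob3c and -5.34 for Wdr91 toward Lgr5 GL cells. Relative to the other time points, it changed by 2.71 for Them5, 2.51 for Cst3, 4.38 for Parp10 and 2.08 for Rabac1 toward Lrig1 GL cells, and by -2.52 for Rif1, -2.35 for Tia1 and -2.98 for Nrep.

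Genes listed in 1 table alone entered no comparison. In the Lrig1 GL libraries at 4w, late cornified envelope genes had mean levels of 187.8 CPM (Lce1c), 95.5 CPM (Lce1i), 84.7 CPM (Lce1f), 83.6 CPM (Lce1l) and 73.3 CPM (Lce1e). The counts of these 5 genes all lay in replicate c, 264 to 676 per gene, except for 1 count of Lce1i in replicate b. In the Lgr5 GL libraries, Sv2b, a synaptic vesicle gene, had a mean of 1278 CPM and counts in all 18 libraries of that population, Krt31, a hair shaft keratin, 119 CPM, Cdrt4os1 47.2 CPM, Penk, which encodes proenkephalin, 37.9 CPM, and Crnn 35.1 CPM. In Lgr5 GL replicates a, b and c, Krt31 had 8, 493 and 70 counts, Penk 0, 183 and 10 and Crnn 0, 152 and 20. Crnn had counts in 5 of the 18 Lgr5 GL libraries. Gm12415, left out before scaling, took 52.1, 28.5 and 30.6% of the counts of Lgr5 GL replicates a, b and c.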

How the results depend on the processing

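All 584 genes called at 4w kept their direction in every alternative that tested them, except the fit with 9 estimated surrogate variables, where 513 did. Numbers of calls are given below as higher in Lrig1 GL and higher in Lgr5 GL cells at 4w, then changed against 0w and against the other 5 time points, for main values of 295, 289, 15 and 66, and only numbers that moved by over 1.5 times are printed. With DESeq2's size factors the last was 30. DESeq2's Wald test gave 829 higher in Lgr5 GL cells, 170 and 456, the likelihood ratio test 507, 702, 153 and 317, and limma voom 657, 878, 4 and 415. With the GC trend removed 654 genes were higher in Lrig1 GL cells and 17 had changed against the other time points. With only the libraries of the contrast 122 genes were higher in Lrig1 GL cells and 0 had changed against 0w (1022 at an unadjusted p under 0.05). Of the 584 genes called at 4w, 255 stayed called in that fit. The estimated surrogate variables left 0, 1, 8 and 1 (1051 at an unadjusted p under 0.05 at 4w), and 2 surrogate variables 155 higher in Lrig1 GL cells and 5 changed against the other time points. With the replicate block, in samples that share only a number, 258 and 250 genes were called at 4w, 1 had changed against 0w and 40 against the other time points, and no library correlated best with the library of its own number. Leaving out 1 library gave 84 to 231, 95 to 194, 0 to 4 and 1 to 108. The surrogate variables turned the sign of Lgr5 (1.76), Tcf7l1 (0.27), Krt75 (0.89), Dmkn (-0.027), Klf4 (-0.26), Cdkn1a (-0.040), mt-Nd4 (-0.13), mt-Co1 (-0.29) and Arpc2 (-0.28), and the cause was not tested. The other filters, the robust fit, Gm12415 kept, mitochondrial genes removed, a prior count of 2 and Lgr5 GL libraries thinned moved no number of calls by over 1.5 times. The same held when all libraries were thinned to the depth of the shallowest at 4w, chosen after seeing the data, with 284 and 326 calls at 4w. The 96 values of genes that the naming rule picked kept their calls in 46 to 72 cases without 1 library. Lgr5 GL replicate a, with 639666 counts tested, limits the depth at 4w, where a count of 0 over a group allows up to 0.611 CPM in Lrig1 GL and 0.836 CPM in Lgr5 GL cells.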
